A study of Mus musculus with 4 samples.

Results

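Neuregulin and HB-EGF are ligands of the ErbB family of receptor tyrosine kinases, and the 6 genes described here are the ligand genes *Nrg1* and *Hbegf* and the receptor genes *Egfr*, *Erbb2*, *Erbb3* and *Erbb4*. They were chosen by symbol as the ErbB pathway of trabeculation, the process by which the ventricle wall forms muscular ridges covered by endocardial cells (EdCs). All 6 were found in each library, among 32285 genes in all. The question was in which cell types of the heart at E10.5 each ligand and receptor gene was expressed, and whether its level differed after loss of *Tie2* (gene symbol *Tek*) from EdCs. A further 62 genes of the same pathway, in 6 lists, were followed beside them, and *Tek* served as the check of the deletion.

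NRG1 is made by the endocardium of the early heart and is received by ERBB4 and ERBB2 on the underlying cardiomyocytes (CMs), and embryos that lack any of these 3 genes form no trabeculae. ERBB2 binds no ligand of its own and acts as the partner of the other receptors, while ERBB3 has an impaired kinase and signals through its partner. HB-EGF is made as a membrane protein, is shed by proteases of the ADAM family and binds EGFR and ERBB4. It is known from the endocardium of the valves, where its loss leads to overgrown cushions, and ERBB3 is known from the cushion mesenchymal cells (MCs) that endocardial cells give rise to.

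The data are 4 libraries of 10x single-cell RNA sequencing of dissociated mouse hearts at E10.5, dissected with the whole cardiogenic region. Control libraries 5 and 7 were labelled Tie2flfl, and *Tie2-cko* libraries 6 and 8 were labelled Nfatcre-Tie2flfl. All 4 thus carry floxed *Tie2* alleles, and *Tie2-cko* hearts carry in addition Cre at the *Nfatc1* locus, a constitutive knock-in that acts in EdCs and their descendants. The embryos were of both sexes and of mixed 129 and C57/BL6 background, and the number of hearts in a library is not given in its label. Each captured transcript bears a unique molecular identifier (UMI). The files hold 8877 to 18488 barcodes and 169361996 to 259775540 UMIs per library, of which 5684 to 10097 cells per library were kept, with a median of 14898 to 25740 UMIs per cell. *Tie2-cko* library 6 had the fewest cells and the highest median. Kept cells of any pair of libraries shared between 12 and 29 barcodes.

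Cells were clustered without the 6 genes and the 62 pathway genes, so that none of them helped to form a cluster. Clusters were named from marker lists, and each name stands for cells like that type. Chamber EdCs (375, 138, 594 and 451 cells in libraries 5, 6, 7 and 8) carried *Emcn*, *Npr3* and *Cdh5*. Cushion EdCs (235, 117, 415 and 397 cells) were led by *Klf2*, *Wnt4* and *Nfatc1*. Another endothelial cluster led by *Cldn5* and *Clec1b* is called vascular endothelial-like. CMs were divided into ventricular, atrial, outflow tract, and AVC (atrioventricular canal) or sinus venosus CMs. A level is the mean over the cells of a library of a gene's UMIs per 10000 UMIs of a cell. Levels were not divided by transcript length, so they compare cell types for 1 gene and not different genes with each other. Every value describes RNA, and with 2 libraries per genotype, which per the methods came from hearts of the same litter, the tests measure the spread between these libraries.

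*Tek*, the gene deleted, followed the labels in both kinds of EdC. Its level in chamber EdCs was 0.893 and 1.01 in control libraries 5 and 7, against 0.13 and 0.149 in *Tie2-cko* libraries 6 and 8. In cushion EdCs it was 0.884 and 1.73 in controls, against 0.315 and 0.235. The log2 fold change was −2.50 ± 0.18 (SE, n = 2 against 2 libraries; edgeR's quasi-likelihood test, Benjamini-Hochberg adjusted p = 0.00587) in chamber EdCs and −2.50 ± 0.26 (adjusted p = 0.0191) in cushion EdCs. In MCs *Tek* was lower as well, with 0.155 and 0.279 in controls and 0.0401 and 0.0333 in *Tie2-cko* (−2.38 ± 0.32, edgeR, adjusted p = 0.583). In epicardial cells its change was small, with 0.229 and 0.266 in controls and 0.21 and 0.226 in *Tie2-cko* (−0.14 ± 0.15). In vascular endothelial-like cells *Tek* did not separate the genotypes (0.632 and 0.776 in controls, 0.774 and 0.682 in *Tie2-cko*). *Nfatc1*, which carries the Cre, had overlapping levels in cushion EdCs (1.60 and 1.39 in controls, 1.73 and 1.46 in *Tie2-cko*). One difference ran with genotype in every cell type tested, the RNA of red blood cells found in other cells. The summed level of 6 red blood cell markers in chamber EdCs was 86.1 and 36.9 in controls, against 14.3 and 13.4 in *Tie2-cko*, and in cushion EdCs 70.5 and 35.9 against 13.1 and 12. All 6 markers were detected in both. Its part in the results below was not tested.

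The ligand gene *Nrg1*, on chromosome 8 (GRCm38, 31814551 to 32884029, minus strand), was an endocardial gene. Its level in chamber EdCs was 0.614, 0.778, 0.592 and 0.75 in libraries 5, 6, 7 and 8, and in cushion EdCs it was 0.869, 0.837, 0.71 and 1.07. These were the highest levels among the 14 named cell types in each library. The mean in cushion EdCs was 1.27-fold that in chamber EdCs and was the higher in 4 of 4 libraries, by 1.08-fold to 1.42-fold, although the ranges over libraries overlapped. *Nrg1* was not a general endothelial gene, as its level in vascular endothelial-like cells was 0.0897, 0.156, 0.179 and 0.159, a mean 4.68-fold below chamber EdCs.

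MCs, many of which derive from cushion EdCs, had a lower level of *Nrg1* (0.165, 0.184, 0.133 and 0.178). This was 26.2-fold the level in ventricular CMs, where *Nrg1* was between 0.00541 and 0.00713. The summed level of 8 EdC markers in MCs was 1.22 to 1.39, against 12.6 to 13.4 in chamber EdCs. CMs as a whole held 279 *Nrg1* UMIs over all libraries, and their levels lay in the range of red blood cells (0.00576 to 0.0168), taken here as background. The plot of levels by cell type sets these values beside those of the receptors.

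**Figure D1:**
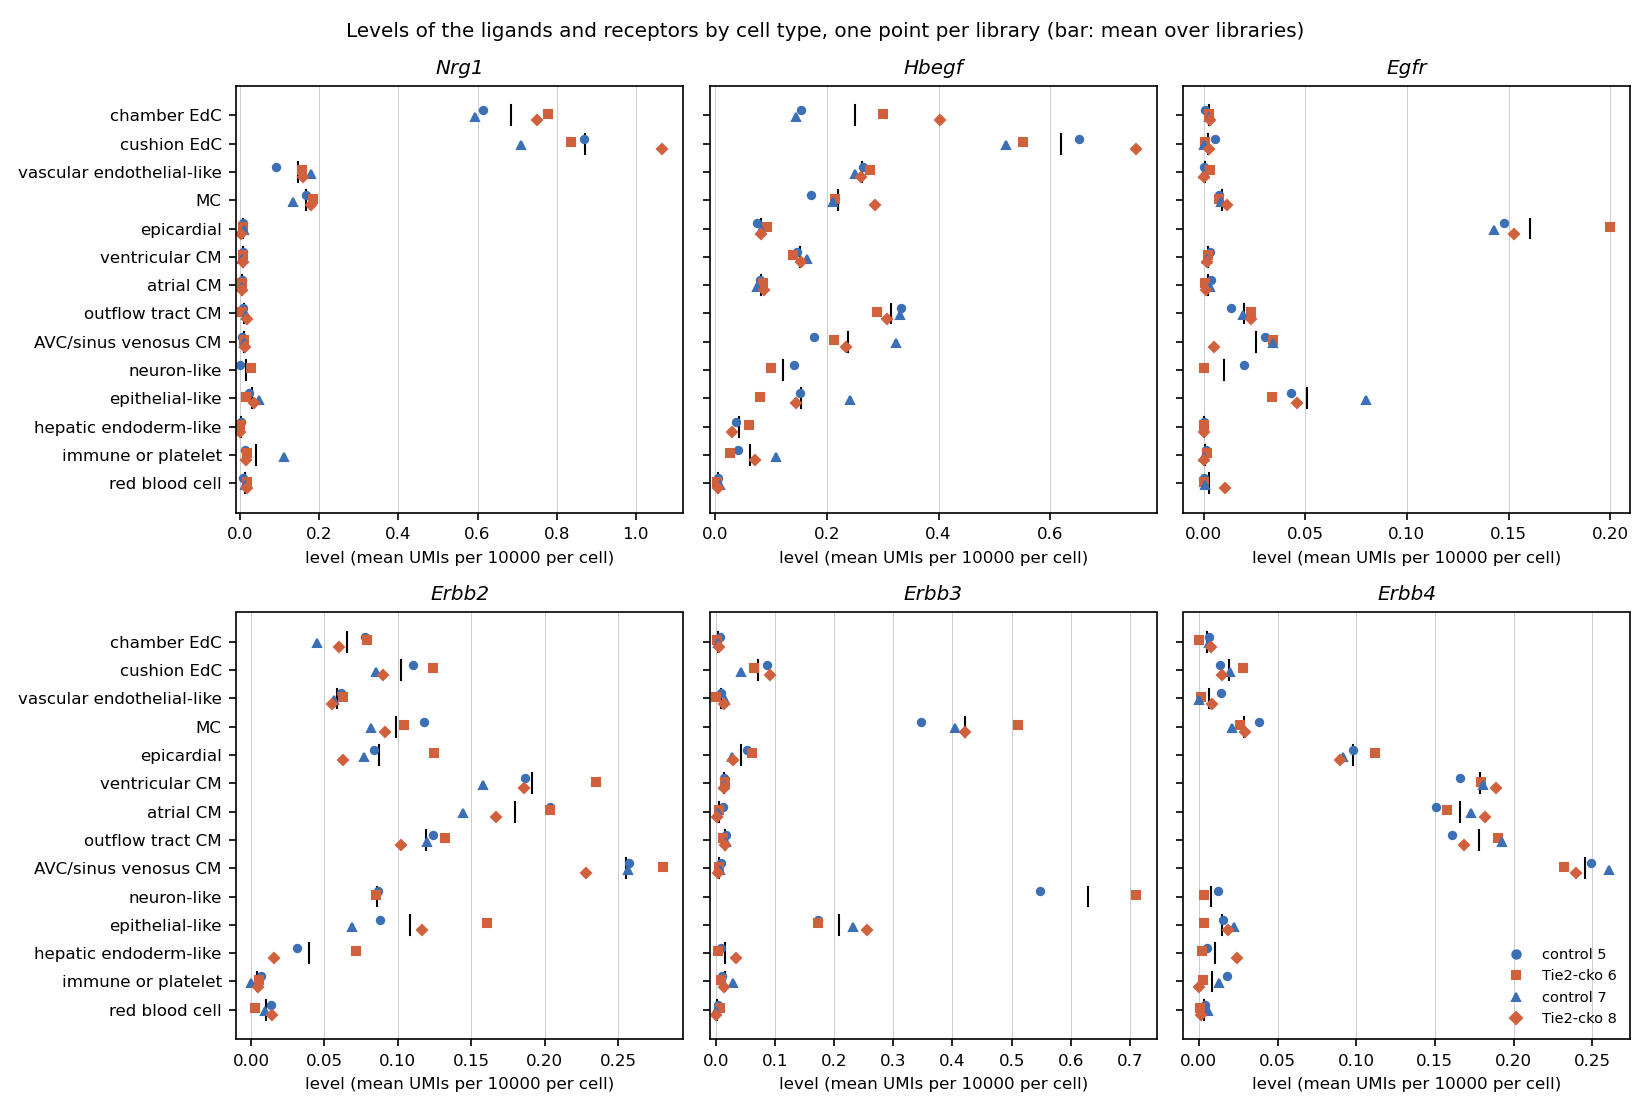
Level of each of the 6 genes (x axes, mean UMIs per 10000 per cell, a separate scale for each gene) in 14 cell types (y axis), with 1 point per library with at least 20 cells and a bar at the mean over libraries. *Nrg1* points of both EdC types lie at 0.592 or above and those of every other type at 0.184 or below, *Erbb4* points are highest in the 4 kinds of CM, *Erbb3* in MCs and neuron-like cells, and *Egfr* in epicardial cells.

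*Nrg1* UMIs were found in about as many chamber as cushion EdCs. For thinned shares, cells with 5000 or more UMIs were thinned to 5000 and cells with fewer were left out. This left out 17, 10, 35 and 26 chamber EdCs and 19, 87, 10 and 17 ventricular CMs in libraries 5, 6, 7 and 8. The thinned share of chamber EdCs with an *Nrg1* UMI was 23.2%, 24.2%, 21.6% and 25.4% in these libraries (95% Wilson intervals between 17.6% and 32.3%). That of cushion EdCs was 23.9%, 24.1%, 20.7% and 23.1%. Without thinning the shares were 42.3% to 58.7% and 32.8% to 45.3%. The same thinned share was 0.0882% to 1.14% in red blood cells and 0.149% to 0.621% in ventricular CMs. Intervals of shares cover counting error only.

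*Hbegf* (chromosome 18, 36504927 to 36515805, minus strand) had a wider spread over cell types than *Nrg1*. Cushion EdCs had the highest level (0.651, 0.552, 0.521 and 0.753 in libraries 5, 6, 7 and 8). It was followed by outflow tract CMs (0.333, 0.29, 0.331 and 0.308), which lay below every cushion EdC value. Outflow tract CMs had 2.09-fold the level of ventricular CMs (0.147, 0.139, 0.164 and 0.154), a difference seen in 4 of 4 libraries, and atrial CMs had between 0.0741 and 0.0881. *Hbegf* thus differed between CMs of different regions of the heart. Vascular endothelial-like cells (0.25 to 0.277), AVC or sinus venosus CMs (0.177 to 0.323) and MCs (0.171 to 0.286) could not be ordered beyond their spread. Within MCs, the cluster led by *Stmn4*, *Postn* and *Tgfbi* had 0.325, 0.336, 0.497 and 0.571, 2.22-fold and 3.78-fold the other MC clusters and above each of them in 4 of 4 libraries. Red blood cells were near 0 (0.00223 to 0.00869).

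Chamber EdCs differed from this order by genotype. Their *Hbegf* level was 0.153 in control library 5 and 0.144 in control library 7, from 106 and 129 UMIs. *Tie2-cko* library 6 had 0.3 and library 8 had 0.402, from 171 and 254 UMIs. The control values lay close together and both *Tie2-cko* values lay above them. In cushion EdCs, where *Tek* was lost as well, the *Tie2-cko* values of *Hbegf* (0.552 and 0.753) surrounded a control value (0.651 and 0.521). Markers of other cells moved with genotype in chamber EdCs too. The summed level of 8 MC markers, all detected, was 1.05 and 1.08 in controls and 1.41 and 1.48 in *Tie2-cko*, and that of 7 neuron markers, all detected, was 0.123 and 0.164 against 0.217 and 0.285. The sum of 8 immune or platelet markers, of which *Ptprc* was at 0, was 0.166 and 0.195 against 0.0942 and 0.105. Their part in the *Hbegf* difference was not tested.

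**Figure D2:**
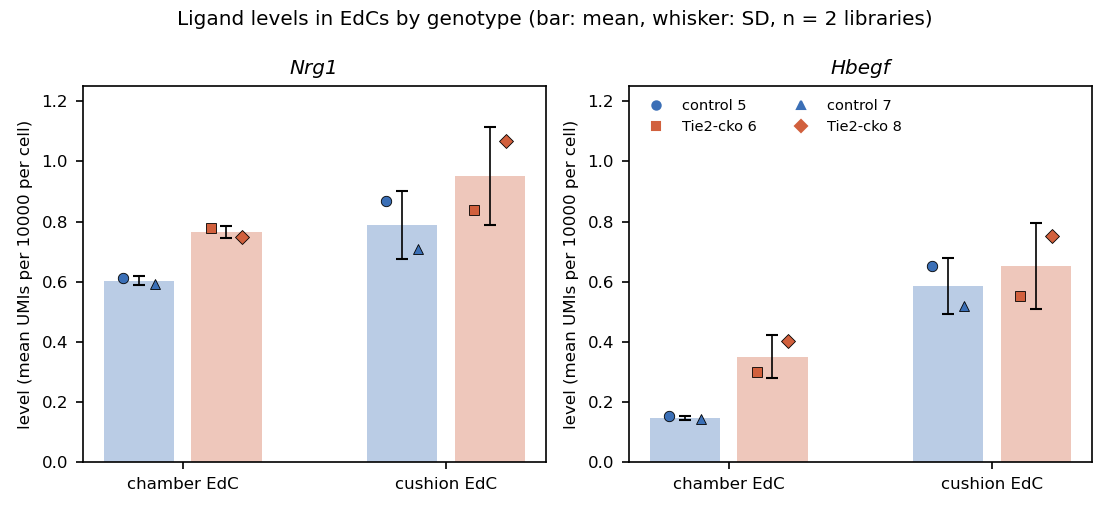
Levels of *Nrg1* and *Hbegf* (y axes, mean UMIs per 10000 per cell) in chamber and cushion EdCs by genotype; points are libraries, bars the mean and whiskers the SD of 2 libraries. *Hbegf* in chamber EdCs is 0.149 ± 0.00641 in controls and 0.351 ± 0.0721 in *Tie2-cko*, while the other 3 pairs of bars lie closer together.

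In the test over all genes, the log2 fold change of *Hbegf* in chamber EdCs was 1.23 ± 0.19 (SE, n = 2 against 2 libraries), a fold of 2.34 with a range of 1 SE from 2.05 to 2.67. It did not pass the threshold by edgeR's quasi-likelihood test, where the unadjusted p was 0.000191 and the Benjamini-Hochberg adjusted p = 0.2. Of 11502 genes tested in chamber EdCs 0.00869% passed, a single gene, which was *Tek*, while 810 had an unadjusted p under 0.05. DESeq2 on the same sums gave *Hbegf* a log2 fold change of 1.22 and an adjusted p = 0.0105, and called 23 genes. By edgeR without a filter on low counts the adjusted p was 6.11e-07, and with a block for libraries 5 and 6 against 7 and 8 the log2 fold change was 1.23 and the adjusted p = 7.37e-06, beside 607 genes called. The size of the difference was thus alike under each of these settings, and whether it passed the threshold was not. *Hbegf* was also among the genes that the study selected on these same samples, so its direction is not independent evidence.

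In cushion EdCs the log2 fold change of *Hbegf* was 0.21 ± 0.23 (edgeR, adjusted p = 0.999), and without library 8 it was −0.23. The difference between the effect in chamber and in cushion EdCs, tested with the library as a block, was 1.01 ± 0.17 on the log2 scale (edgeR, adjusted p = 0.00408). The test covered 11879 genes, of which 0.707% passed, and *Hbegf* was the only one of the 5 ErbB genes tested to do so. DESeq2 gave a difference of 1.04 and an unadjusted p of 0.000794 with no adjusted value. Within a library, cushion EdCs held 4.25 times (library 5) and 3.62 times (library 7) the *Hbegf* level of chamber EdCs in the controls. The ratio was 1.84 in library 6 and 1.87 in library 8, the *Tie2-cko* pair. Cushion EdCs were therefore above chamber EdCs in all 4 libraries, by a smaller factor in both *Tie2-cko* libraries.

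The share of chamber EdCs with an *Hbegf* UMI, after thinning to 5000 UMIs, was 4.19% (95% interval 2.56% to 6.8%) in control library 5 and 6.8% (4.99% to 9.19%) in control library 7. It was 13.3% (8.46% to 20.2%) in *Tie2-cko* library 6 and 14.8% (11.8% to 18.5%) in *Tie2-cko* library 8. In cushion EdCs the shares were 17.1%, 14.7%, 17% and 15.6% in libraries 5, 6, 7 and 8. The control shares of chamber EdCs were the only ones of the 8 below 10%, a value chosen after the shares were seen. In red blood cells the share was 0.207% to 0.325% in libraries 5, 6 and 7, and 0 of 175 cells in library 8 held a UMI, which allows a share of up to 2.15% by the Wilson interval. Without thinning the shares of chamber EdCs were 19.2%, 44.2%, 15.5% and 28.6%, in which the depth of library 6 enters.

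**Figure D3:**
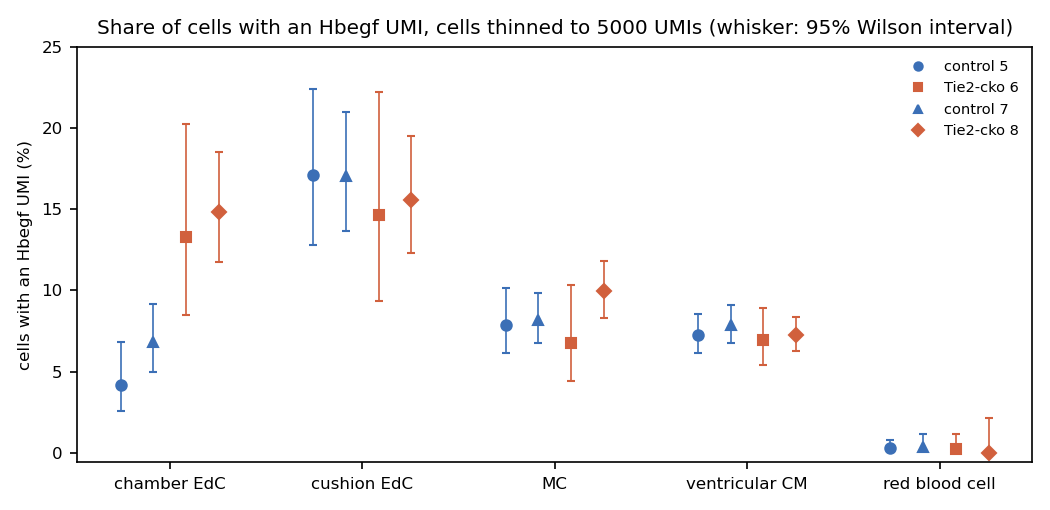
Share of cells with an *Hbegf* UMI (y axis, %) among cells of 5000 or more UMIs, each thinned to 5000, by cell type (x axis). Each point is a library and each whisker its 95% Wilson interval. Control chamber EdCs stand at 4.19% and 6.8% and *Tie2-cko* chamber EdCs at 13.3% and 14.8%, beside cushion EdCs at 14.7% to 17.1%.

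*Nrg1*, the ligand of trabeculation, did not pass the test in any cell type. In chamber EdCs both *Tie2-cko* levels (0.778 and 0.75) lay above both control levels (0.614 and 0.592), with a log2 fold change of 0.21 ± 0.13 (edgeR, adjusted p = 0.819), a fold of 1.15. Of all genes tested in chamber EdCs, 19.8% had both *Tie2-cko* libraries above both controls and 18.1% had both below, by summed counts scaled to library size, so such an order was common. In cushion EdCs the *Nrg1* genotypes overlapped (0.25 ± 0.17, edgeR, adjusted p = 0.999). Of 11246 genes there 0.0445% passed the test, which were *Tek* and the globin genes *Hbb-bt*, *Hbb-bh1*, *Hbb-y* and *Hba-a2*. Both *Tie2-cko* libraries were above both controls for 14.6% and below for 13.6%. The thinned shares of *Nrg1* in chamber EdCs were also higher in both *Tie2-cko* libraries (24.2% and 25.4%) than in both controls (23.2% and 21.6%). Their Wilson intervals overlapped. In cushion EdCs the thinned shares themselves overlapped between genotypes. The difference of the *Nrg1* effect between chamber and cushion EdCs was −0.06 ± 0.14 (adjusted p = 0.956).

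*Erbb4* (chromosome 1, 68032186 to 69108059, minus strand), the receptor that binds neuregulin on CMs, was a CM gene. Ventricular CMs had 0.166, 0.179, 0.181 and 0.189 in libraries 5, 6, 7 and 8. AVC or sinus venosus CMs had the highest level (0.249, 0.232, 0.261 and 0.24), above ventricular CMs in 4 of 4 libraries and without overlap. Ventricular, outflow tract (0.161 to 0.193) and atrial CMs (0.151 to 0.182) could not be ordered beyond their spread. Epicardial cells, which line the outside of the heart, came next with 0.0982, 0.112, 0.0918 and 0.0898, and ventricular CMs were 1.83-fold above them. MCs had 0.021 to 0.0379, and chamber EdCs held 13 *Erbb4* UMIs in all, a mean level of 0.00515 against 0.00312 in red blood cells.

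The 2 clusters of ventricular CMs differed in *Erbb4*. The cluster led by *Cited1* and *Nppa*, which carried the higher *Nppa* (41.7 to 67.1 UMIs per 10000, against 13.1 to 22.1), had an *Erbb4* level of 0.136, 0.134, 0.137 and 0.141. The cluster led by *Ttn* and *Myh7* had 0.214, 0.259, 0.253 and 0.302. *Nppa*, which encodes the natriuretic peptide ANF, marks the trabecular side of the early ventricle. *Erbb4* was thus higher in the cluster with less *Nppa*, by 1.88-fold (1.57-fold to 2.14-fold) in 4 of 4 libraries. *Erbb2* was higher there as well, by 1.33-fold in 4 of 4 libraries, and *Hbegf* was not (0.987-fold, higher in 1 of 4). The clusters differed in depth, as the *Ttn* cluster had a median UMI number of 2.18 times that of its libraries and the *Nppa* cluster 1.45 times, and its part in the differences was not tested. After thinning, the share of cells with an *Erbb4* UMI was 9.94% to 12% in the *Ttn* cluster and 5.27% to 7.99% in the *Nppa* cluster.

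*Erbb2* (chromosome 11, 98412470 to 98437716, plus strand), the partner receptor without a ligand, was found in CMs, EdCs, MCs and epicardial cells. AVC or sinus venosus CMs led (0.258, 0.28, 0.257 and 0.228), followed by ventricular CMs (0.187, 0.235, 0.158 and 0.186) and atrial CMs (0.204, 0.204, 0.144 and 0.167). Outflow tract CMs had 0.124, 0.132, 0.12 and 0.102, which was 2.14-fold below AVC or sinus venosus CMs in the mean and below all other CMs without overlap. Cushion EdCs (0.0853 to 0.124), MCs (0.0815 to 0.118) and epicardial cells (0.0629 to 0.125) overlapped. Chamber EdCs had 0.0774, 0.0787, 0.0446 and 0.0597, below cushion EdCs in 4 of 4 libraries. Red blood cells had 0.00291 to 0.0146.

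*Erbb3* (chromosome 10, 128567523 to 128589652, minus strand) separated MCs from CMs. MCs had 0.348, 0.51, 0.405 and 0.421 in libraries 5, 6, 7 and 8, a mean 29.4-fold above ventricular CMs (0.0136 to 0.0159). After thinning, 14.8% to 18.8% of MCs held an *Erbb3* UMI, against 0.547% to 0.87% of ventricular CMs. Neuron-like cells, measured only in libraries 5 and 6 where at least 20 were found, were higher still (0.548 and 0.709). This cluster carried *Sox10*, and ERBB3 is the neuregulin receptor of neural crest and Schwann cell precursors. Epithelial-like cells followed MCs with 0.173 to 0.256.

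The 2 kinds of EdC differed in *Erbb3*. Cushion EdCs had 0.0872, 0.0641, 0.0422 and 0.0919, and chamber EdCs had 0.00153 to 0.00715 from 15 UMIs in all, a level near that of red blood cells (0 to 0.00694). The mean was 15.3-fold higher in cushion EdCs, and cushion EdCs were the higher in 4 of 4 libraries. The summed level of 8 MC markers was 3.63 to 4.49 in cushion EdCs and 1.05 to 1.48 in chamber EdCs, and the part of MC transcripts in the *Erbb3* of cushion EdCs was not tested.

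*Egfr* (chromosome 11, 16752203 to 16918158, plus strand), the receptor that HB-EGF shares with ERBB4, was highest in epicardial cells. Epicardial cells had 0.148, 0.2, 0.143 and 0.153 in libraries 5, 6, 7 and 8, above the next cell type, epithelial-like cells (0.0335 to 0.0801), without overlap. In CMs *Egfr* was 0.00518 to 0.0343 in those of the AVC or sinus venosus, 0.0136 to 0.0233 in outflow tract CMs and 0.00155 to 0.00316 in ventricular CMs. MCs had 0.00762 to 0.0116, a mean 18-fold below epicardial cells. Chamber and cushion EdCs held 6 *Egfr* UMIs each, with mean levels of 0.00247 and 0.00232, too few to compare libraries. Among MCs the *Postn* cluster had 0.0276 to 0.0511, against 0 to 0.00624 in the other clusters. This was the MC cluster with the highest *Hbegf* as well.

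Of the receptors, none passed the test of genotype. In the 6 cell types tested, 30 of 36 pairs of gene and cell type had enough counts, and 0 passed by edgeR. Of these pairs 1 had an unadjusted p under 0.05 and 1 passed by DESeq2, both of them *Hbegf* in chamber EdCs. All CMs together include the ventricular CMs, so their tests share cells and are not independent. Among 15690 genes in all CMs together 0% passed, with 64 at an unadjusted p under 0.05 and 2 called by DESeq2. In ventricular CMs 0% of 14685 passed (79 and 1), in MCs 0% of 12724 (136 and 8), and in epicardial cells 0.042% of 11904, which were 5 globin genes. A miss of the threshold with 2 libraries per genotype does not show that levels were equal.

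In ventricular CMs the log2 fold changes were 0.03 ± 0.16 for *Erbb4* and 0.10 ± 0.12 for *Erbb2* (edgeR, adjusted p of 1.00 for both). In MCs that of *Erbb3* was 0.22 ± 0.14 and in epicardial cells that of *Egfr* was 0.22 ± 0.15, again with adjusted p of 1.00. In chamber EdCs *Erbb2* had 0.49 ± 0.37 (adjusted p = 0.845) and in cushion EdCs *Erbb3* had 0.51 ± 0.35 (adjusted p = 0.999). Each of these 6 values lay less than 2 SE from 0. In the *Ttn* cluster *Erbb4* was 0.214 and 0.253 in controls and 0.259 and 0.302 in *Tie2-cko*. In the *Nppa* cluster it overlapped (0.136 and 0.137 against 0.134 and 0.141). *Erbb2* was 0.217 and 0.201 against 0.263 and 0.23 in the *Ttn* cluster, and 0.1669 and 0.1316 against 0.2191 and 0.1672 in the other. The *Nppa* cluster held 1113 of 1825 and 1262 of 2020 cells in controls, and 567 of 892 and 1680 of 2392 in *Tie2-cko*. Neither cluster was tested alone. The red blood cell marker sum was again higher in controls, with 48.1 and 17.4 against 15.0 and 7.14 in ventricular CMs, 66.2 and 32.2 against 11.6 and 11 in MCs, and 66.1 and 36.2 against 15.4 and 9.42 in epicardial cells.

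On counts summed per library and scaled by TMM (edgeR's trimmed mean scaling), both *Tie2-cko* libraries were above both controls in 6 pairs and below in 4. Above were *Nrg1* and *Hbegf* in chamber EdCs, *Nrg1* and *Erbb3* in MCs, and *Egfr* and *Hbegf* in epicardial cells. Below were *Erbb3* and *Egfr* in all CMs, *Erbb3* in ventricular CMs and *Erbb4* in epicardial cells. By the mean level per cell the 6 above were separate as well. *Egfr* in all CMs was narrowly so, with 0.00878 and 0.00978 in controls and 0.0087 and 0.00607 in *Tie2-cko*. With all UMIs pooled it overlapped, at 0.00597 in library 5 and 0.00601 in library 6. In AVC or sinus venosus CMs library 8 had 0.00518 from 4 UMIs, against 0.0301, 0.0342 and 0.0343 in libraries 5, 6 and 7. By the mean level per cell the genotypes overlapped for *Erbb3* in all CMs and in ventricular CMs and for *Erbb4* in epicardial cells. *Hbegf* in MCs was separate by the mean level alone, with 0.171 and 0.211 in controls and 0.214 and 0.286 in *Tie2-cko*. The *Postn* cluster held 152 of 716 and 204 of 1268 MCs in controls, and 80 of 290 and 278 of 1141 in *Tie2-cko*. There *Nrg1* was 0.19 and 0.189 in controls, against 0.316 and 0.231. In the MC cluster led by *Rtn1* it was 0.164 and 0.0984 against 0.131 and 0.17. In the one led by *Twist1* it was 0.15 and 0.161 against 0.136 and 0.146. *Erbb3* and *Hbegf* too were separate in some MC clusters only, and the part of this make-up was not tested. Of all genes tested, the shares above and below were 8.84% and 8.11% in all CMs, 9.53% and 8.95% in ventricular CMs, 12.1% and 11.6% in MCs, and 12.7% and 11.4% in epicardial cells.

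**Figure D4:**
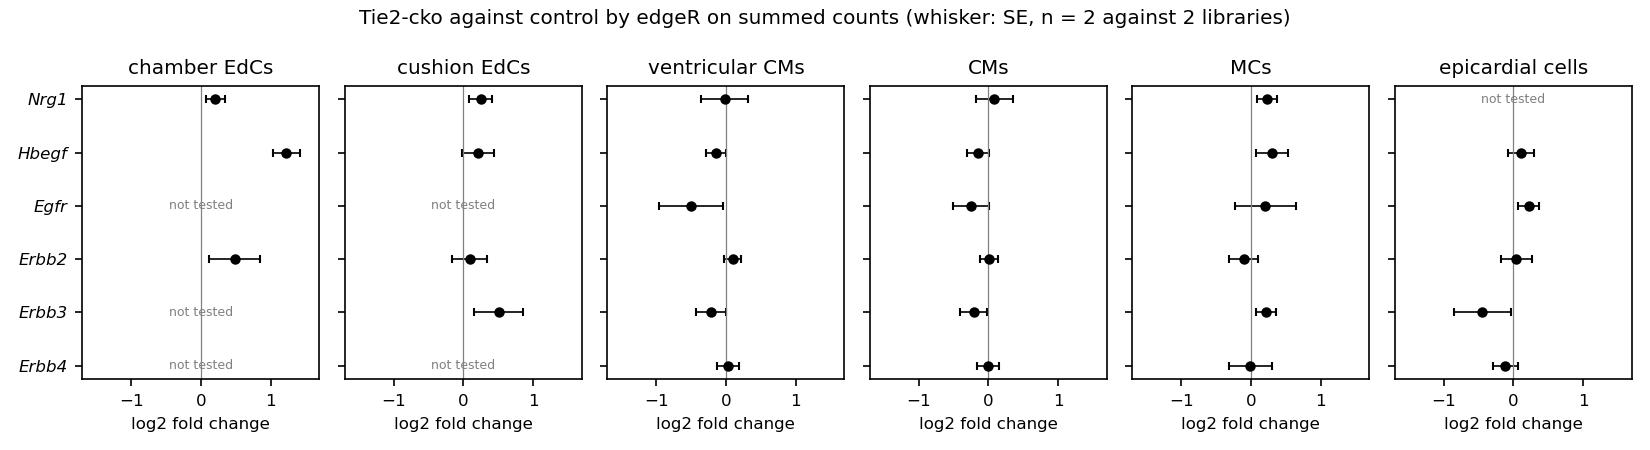
Log2 fold change of *Tie2-cko* against control (x axes) for each of the 6 genes (y axis) in 6 cell types, by edgeR on summed counts; whiskers are the SE for 2 against 2 libraries and genes with too few counts are marked as not tested. *Hbegf* in chamber EdCs stands at 1.23 and the other values lie between −0.50 and 0.51.

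The other genes of the pathway gave 323 tests over the 6 cell types. Of these 0 passed by edgeR and 0 by DESeq2, and 15 and 8 had an unadjusted p under 0.05. By edgeR 7 of 51 pathway genes in chamber EdCs were under 0.05, beside 810 of all 11502 genes. In cushion EdCs it was 2 of 49 beside 242 of 11246, and in epicardial cells 2 of 52 beside 129 of 11904. MCs had 2 of 53 beside 136 of 12724. Ventricular CMs had 2 of 59 beside 79 of 14685, and all CMs 0 of 59 beside 64 of 15690. The other ErbB ligands (9 genes, among them *Nrg2*, *Egf* and *Tgfa*) were too low to test in either kind of EdC. *Nrg1* and *Hbegf* were thus the only ErbB ligand genes with enough counts for a test there.

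In chamber EdCs, attenuators of the pathway, which shorten or damp receptor signals, had both *Tie2-cko* libraries above both controls for 6 of 11 genes tested and below for 0, on the same TMM-scaled counts. Over all genes tested there 19.8% were above and 18.1% below, the background for each list in chamber EdCs. The attenuators' median log2 fold change was 0.34, beside 0.0045 over all genes. The one with the largest value among those at a level of 0.1 or more was *Dusp6*, a phosphatase of ERK induced by ERK signals, with 0.204 and 0.214 in controls and 0.32 and 0.244 in *Tie2-cko* (0.46 ± 0.15, edgeR, adjusted p = 0.609). Sheddases, the proteases that release the ligands, had 4 of 8 genes below and 1 above, with a median of −0.14. With 6 to 13 genes in a list, these counts are a description and have no test. *Adam19*, a sheddase of neuregulin known from valve development, was 0.498 and 0.493 in controls and 0.351 and 0.419 in *Tie2-cko* (−0.47 ± 0.14, adjusted p = 0.543).

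Signal transducers had 4 of 13 genes above and 1 below, with a median of 0.02. The one below was *Pik3r3*, a regulatory subunit of PI3K, with 0.129 and 0.176 in controls and 0.0827 and 0.103 in *Tie2-cko* (−0.81 ± 0.25, edgeR, adjusted p = 0.557). Response and trabecular genes had 3 of 13 above and 1 below, with a median of 0.17, and among them *Hey2*, a Notch target, was 0.063 and 0.0675 in controls and 0.0965 and 0.138 in *Tie2-cko* (0.70 ± 0.27, adjusted p = 0.667). Co-receptors had 1 of 6 above and 1 below, the latter *Sdc1*, a heparan sulphate proteoglycan (−0.25 ± 0.17, adjusted p = 0.822), whose levels per cell overlapped (0.265 and 0.227 in controls, 0.231 and 0.18 in *Tie2-cko*).

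In cushion EdCs, where 14.6% of all genes tested were above and 13.6% below, attenuators had 2 of 11 above and 1 below and a median of 0.08. Sheddases had 1 of 8 above, co-receptors 1 of 6 above and 1 below, transducers 3 of 13 above and 1 below, and response genes 3 of 11 above. *Egr1*, an immediate early gene, had 0.495 and 0.43 in controls and 0.636 and 0.728 in *Tie2-cko* (0.45 ± 0.20, edgeR, adjusted p = 0.999). The difference of effect between chamber and cushion EdCs was tested for 51 pathway genes, of which 0 passed by edgeR and by DESeq2. By edgeR and DESeq2, 8 and 0 of them had an unadjusted p under 0.05, beside 1059 and 159 of all 11879 genes.

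**Figure D5:**
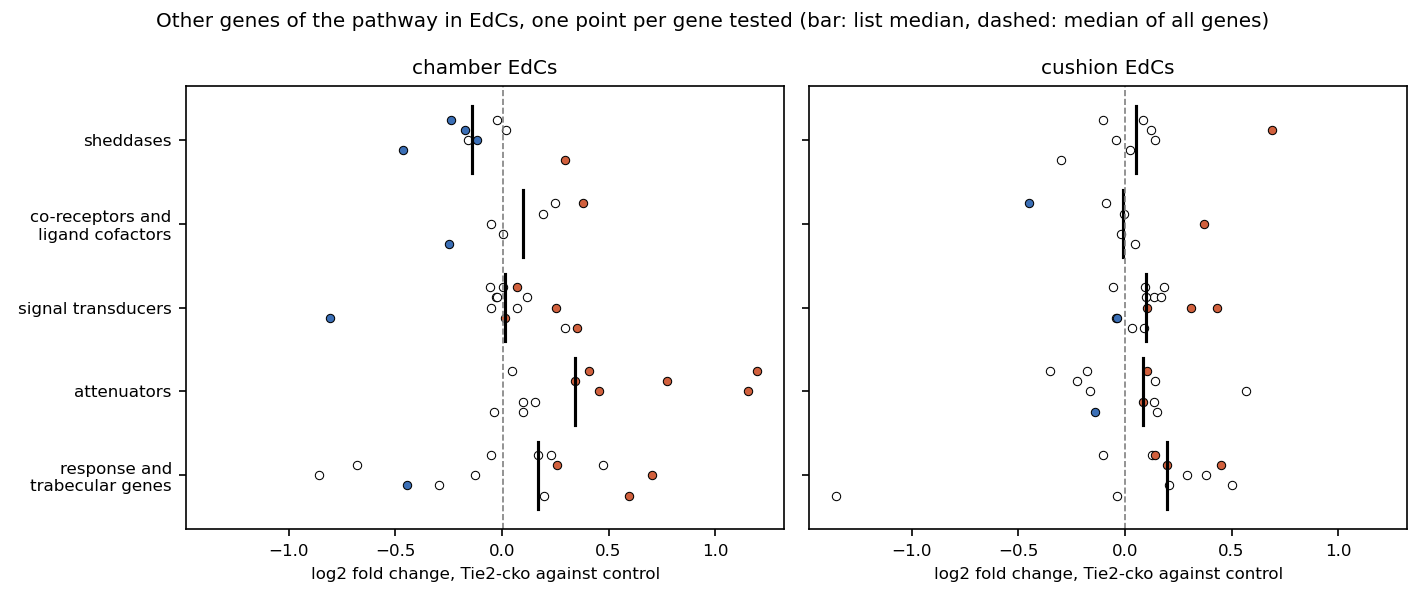
Log2 fold change of *Tie2-cko* against control (x axes) of the pathway genes tested in chamber and cushion EdCs, by list (y axis); each point is a gene, orange where both *Tie2-cko* libraries lay above both controls, blue where both lay below and white where the genotypes overlapped, with a bar at the list median and a dashed line at the median of all genes. The median of the attenuators is 0.34 in chamber EdCs and 0.08 in cushion EdCs, and that of the sheddases is −0.14 and 0.05.

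On the receiving side, ventricular CMs had *Nppa* levels of 40.8 and 50.2 in controls and 35.9 and 33.2 in *Tie2-cko* (−0.39 ± 0.13, edgeR, adjusted p = 1.00). In epicardial cells *Egr1* was 0.657 and 0.545 in controls and 0.805 and 1.13 in *Tie2-cko* (0.75 ± 0.18, adjusted p = 1.00), and 6 of 13 response genes there had both *Tie2-cko* libraries above and 0 below, beside 12.7% and 11.4% of all genes. In MCs *Cd44*, a hyaluronan receptor that can present ligands to ErbB receptors, was 0.0973 and 0.104 in controls and 0.154 and 0.123 in *Tie2-cko* (0.47 ± 0.16, adjusted p = 1.00). *Egr1* ran the other way in MCs, with 0.348 and 0.357 in controls and 0.315 and 0.284 in *Tie2-cko* (−0.28 ± 0.13). None of these passed the test.

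Genes with the most similar pattern to each of the 6 were sought over 24 clusters among 8938 genes, by Pearson's r of log2 levels. The clusters share libraries, so the values are a description. *Nrg1* was most like *F2r* (0.897), *Eng* (0.886) and *Cxcl16* (0.885), and *Hbegf* like *Rab21* (0.891), *Rcan1* (0.881) and *Camta1* (0.863), all 6 highest in cushion EdCs. *Erbb4* was most like *Cox20* (0.926), *Myl7* (0.926) and *Gyg* (0.925), and *Erbb2* like *Ift43* (0.916), *Stk39* (0.908) and *Akap7* (0.894), all of them highest in CM clusters. *Erbb3* was most like *Lmo4* (0.838), *Dusp16* (0.816) and *Rtn1* (0.795), and *Egfr* like *Sema3d* (0.886), *Dcn* (0.837) and *Daam2* (0.802), the last 3 highest in epicardial cells.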

How the data were processed

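UMI counts, deposited as a gene by barcode matrix per library, were made by the authors with Cell Ranger (6.1.2 in the file headers, while the methods name another version) on mm10 per the submitters' processing notes. Gene positions are from GENCODE M21. A cell was kept if it had 500 or more genes, 1000 or more UMIs and no more than 10% of mitochondrial UMIs. The barcodes with the highest Scrublet scores (scanpy 1.11.5) were removed at 0.8% per 1000 barcodes. Seurat 5.3.0 clustered cells on 2000 variable genes, 68 pathway genes left out, with 30 components, 20 neighbours and resolution 0.8. Clusters were named by marker lists. The conditions on *Postn* and on low UMI numbers were set after clusters were seen, and left some unnamed. Counts summed per library and cell type were tested with edgeR 4.0.16 (TMM, filterByExpr, quasi-likelihood, Benjamini-Hochberg, threshold 0.05), with DESeq2 1.42.0 as an alternative, in R 4.3.3. Scripts were tested on simulated data.

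The 6 genes, the lists and the tests were chosen with earlier results of these data known. The text names the 6 genes in the cell types tested, *Tek*, any pathway gene past the threshold and, per list and cell type, the gene with the largest change among those at a level of 0.1 or more whose genotypes did not overlap, with examples of these given, and the 3 genes most like each of the 6.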

Additional observations from a re-analysis of the deposited data

Results flagged for a closer look

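The effect of genotype on *Hbegf* differed between the 2 kinds of EdC, by 1.01 ± 0.17 on the log2 scale (edgeR, n = 2 against 2 libraries, adjusted p = 0.00408). In chamber EdCs each *Tie2-cko* library had more *Hbegf* than each control, and the genotypes overlapped in cushion EdCs. With any 1 library left out the difference was 0.87 to 1.2, with adjusted p from 4.95e-05 to 0.0193. These fits leave 1 library in a genotype, assumed to vary like the others, and called 56 to 220 genes where all libraries gave 84, so the values describe size and are no added support. Without a filter on low counts the difference was 0.99 (adjusted p = 0.00145). The red blood cell marker sum was lower and the MC marker sum higher in *Tie2-cko* libraries in both kinds of EdC (MC sum 3.63 and 3.88 in controls, 4.49 and 4.26 in *Tie2-cko* in cushion EdCs), and their part was not tested.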

How the results depend on the processing

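Of 300 alternative values of the 30 genotype results of the 6 genes, 264 kept direction and side of the threshold, 7 passed the threshold in the same direction and 29 had the opposite sign, spread over 14 results. The 7 were all *Hbegf* in chamber EdCs, which was 1.22 by DESeq2 (adjusted p = 0.0105), 1.22 without a filter (6.11e-07), 1.23 with a block for libraries 5 and 6 against 7 and 8 (7.37e-06) and 0.98 to 1.43 with 1 library left out (1.85e-05 to 0.0083). With a stricter cell filter, no removal of doublets or resolution 1.2 it did not pass (0.161 to 0.187). The labels and methods do not name which libraries match. The block follows cell content, since pharyngeal or foregut mesoderm-like cells numbered 536 and 565 in libraries 5 and 6 but 2 and 4 in libraries 7 and 8, which is a hint from the data. Leaving out 1 library leaves 1 in its genotype, assumed to vary like the others, and raised the number of calls in chamber EdCs, so its adjusted p values are no sign of stability. The cause of these changes was not tested.

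Log2 fold changes that changed sign were all short of the threshold. At resolution 1.2 *Erbb2* in cushion EdCs was −0.00258 and *Erbb4* in CMs 0.0113. In ventricular CMs *Erbb4* was −0.0266 and *Nrg1* 0.0192 with the stricter filter, and *Erbb4* was −0.0059 with doublets kept. *Erbb4* in MCs was 0.0348 with the block and 0.0382 with the stricter filter. With 1 library left out, cushion EdCs ranged from −0.079 to 0.26 for *Erbb2* and −0.23 to 0.54 for *Hbegf*. CMs ranged from −0.17 to 0.14 for *Erbb4*, −0.15 to 0.28 for *Nrg1*, −0.10 to 0.11 for *Erbb2* and −0.30 to 0.0072 for *Hbegf*, and ventricular CMs from −0.14 to 0.18 for *Erbb4* and −0.32 to 0.22 for *Nrg1*. MCs ranged from −0.30 to 0.31 for *Erbb4*, −0.23 to 0.52 for *Egfr*, −0.32 to 0.13 for *Erbb2* and −0.071 to 0.58 for *Hbegf*, and epicardial cells from −0.89 to 0.20 for *Erbb3* and −0.15 to 0.25 for *Erbb2*. The chamber against cushion difference of *Nrg1* ranged from −0.28 to 0.21.

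Counts of genes past the threshold moved more. In chamber EdCs the single gene became 23 by DESeq2, 160 without a filter, 607 with the block and 99 to 161 with 1 library left out. In cushion EdCs 5 became 27 without a filter, 76 with the block, 3 with the stricter filter, 1 with doublets kept, 0 at resolution 1.2 and 26 to 68 with 1 library left out. In CMs 0 became 2 by DESeq2, 81 with the block and 0 to 20 with 1 library left out, and in ventricular CMs 1, 57 and 1 to 43. In MCs 0 became 8 by DESeq2, 24 without a filter, 103 with the block and 0 to 32, and in epicardial cells 5 became 11 without a filter, 67 with the block, 1 with doublets kept and 6 to 70. The 84 genes of the chamber against cushion test became 5 by DESeq2 and 56 to 220 with 1 library left out. *Tek* in cushion EdCs lost the threshold with doublets kept (−1.99) and at resolution 1.2 (−2.56).

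The cell type with the highest level among the 6 tested stayed the same for 5 of 6 genes with all UMIs pooled and with doublets kept, the exception being *Erbb2* between ventricular and all CMs. For the share of cells, over 5 cell types, it stayed for 5 of 6 without thinning, where *Hbegf* moved from cushion EdCs to ventricular CMs. Levels of *Egfr*, *Erbb3* and *Erbb4* in EdCs rest on few UMIs and could not be compared between genotypes, except *Erbb3* in cushion EdCs.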

Other observations

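Mesoderm-like cells of the pharynx or foregut, led by *Barx1* and *Osr1*, were found almost only in libraries 5 and 6 (536 and 565 cells, against 2 and 4). In these cells *Nrg1* was 0.0619 and 0.0706, *Hbegf* 0.0614 and 0.0423 and *Erbb2* 0.0917 and 0.0627 UMIs per 10000 in libraries 5 and 6, while *Erbb3* held 2 UMIs in each.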
